A study of Danio rerio with 6 samples.

Results

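The 10 genes described here carry iron across membranes, through the blood and into storage: the transferrin gene tfa, the transferrin receptor genes tfr1a, tfr1b and tfr2, the membrane transporter genes slc40a1 and slc11a2, the ferritin heavy chain genes fth1a and fth1b, the hormone gene hamp, and the ceruloplasmin gene cp. They were chosen by symbol from the 32520 genes of the deposited count table, and all 10 passed the filter on low counts. Of these, 9 were matched by their own symbol. The name table gives fth1b under the symbol fth1, which names 1 gene, and that gene was taken. The counts come from polyA RNA of whole zebrafish at 5 days post fertilization, with 3 libraries labelled wild type (wt11, wt12 and wt13) and 3 labelled sas10 mutant (s1, s2 and s3). Sas10 is a nucleolar protein needed to make the small ribosomal subunit, and the zebrafish gene is utp3. The labels give neither the allele, nor the strain, nor how many animals went into a library.

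Iron travels in plasma bound to transferrin, which cells take up through transferrin receptors. Inside the endosome the iron is released and moved to the cytosol by DMT1, the product of slc11a2, while surplus iron is held in ferritin cages or leaves the cell through ferroportin, the product of slc40a1. Hepcidin, the peptide encoded by hamp, is made mainly by hepatocytes and triggers the removal of ferroportin from the cell surface. The transcripts of several of these genes are also bound by iron regulatory proteins, so that in mammals the amount of ferritin or receptor protein can change without a matching change in transcription. Mutations in tfa, tfr1a, slc11a2 and slc40a1 cause anaemia in zebrafish.

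The libraries held 17599625 to 19718753 counts. The targeted gene utp3 (chromosome 11) stood at 35, 34.7 and 27.2 CPM (counts per 1000000 counts, on scaled library sizes) in wild type libraries wt11, wt12 and wt13, and at 10.7, 11.3 and 10.5 CPM in s1, s2 and s3. All mutant values were below all wild type values, in the direction of the labels (log2 fold change -1.58 ± 0.13 SE, edgeR adjusted p = 1.53e-06). Wild type library wt11 stood apart from its group, with a second principal component score of 42.3 against -10.6 and -27.4 in wt12 and wt13. Ferritin-like genes also stood higher in wt11 and in mutant library s1 than in the other libraries of their genotype, as given with the storage genes.

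Of the 10 genes, 2 rose in the mutants (slc11a2 and fth1a), 3 fell (tfa, fth1b and slc40a1), and 5 were not called (hamp, cp, tfr1a, tfr1b and tfr2), at a Benjamini-Hochberg adjusted p under 0.05 over all 21708 genes tested with edgeR's quasi-likelihood test. Over all genes, 62.2% were called, 30.5% as higher and 31.8% as lower, so the share called among the iron genes was no larger than that of the transcriptome. The median log2 fold change was -0.31 for the 10 genes and -0.04 for all genes tested. The genotypes did not overlap in CPM for 6 of the 10, against 67.6% of all genes tested. Without s1, 1 rose and 4 fell. The direction thus differed between members of the same pathway and, for ferritin, between copies of the same gene.

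**Figure D1:**
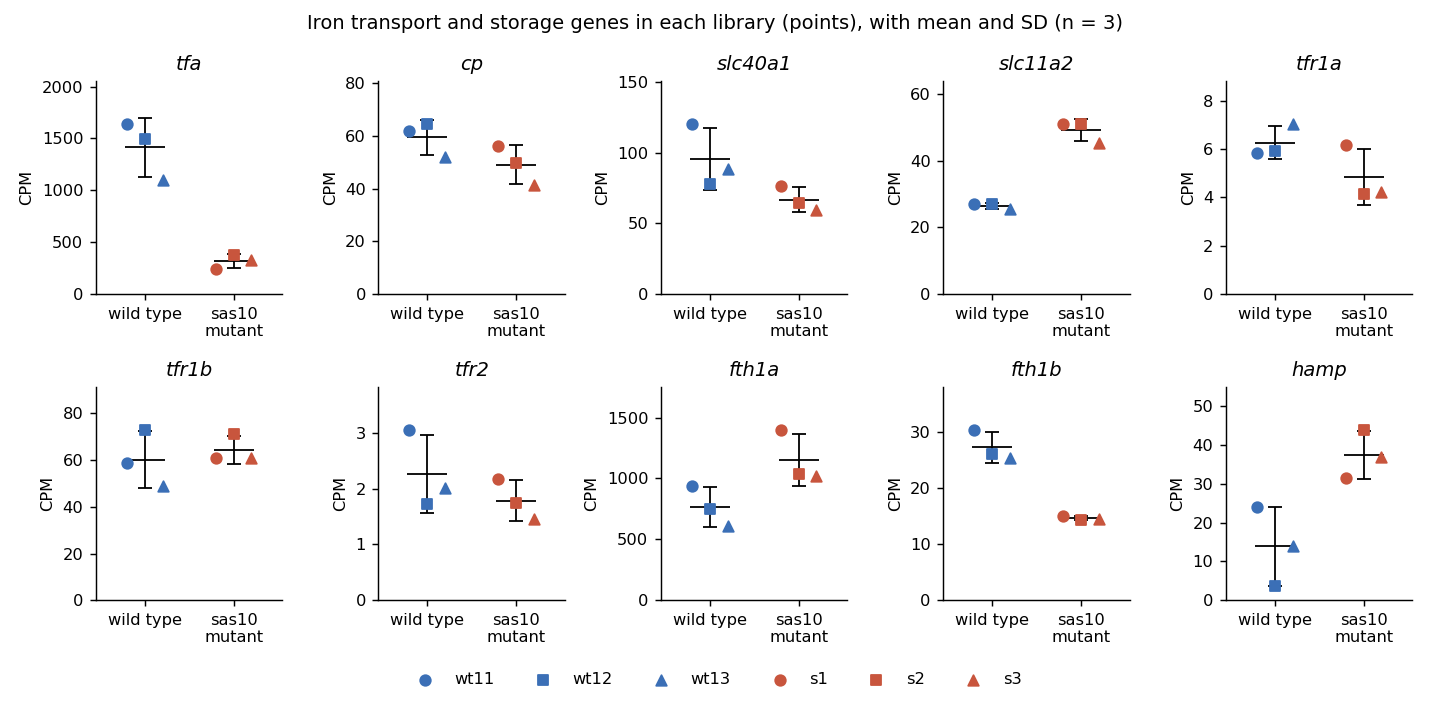
CPM of each of the 10 genes (vertical axes from 0, a scale for each gene) in the 3 wild type libraries (blue) and the 3 sas10 mutant libraries (red), with a marker shape for each library, and the mean with its SD in black. The mutant points lie apart from the wild type points for tfa, slc40a1, slc11a2, fth1a, fth1b and hamp, and overlap them for cp, tfr1a, tfr1b and tfr2.

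The carrier of plasma iron changed most. The transferrin gene tfa (ENSDARG00000016771, GRCz11 chromosome 2, 16780643 to 16794710, plus strand) was at 1643, 1498 and 1101 CPM in wt11, wt12 and wt13, and at 247, 376 and 331 CPM in s1, s2 and s3. Every mutant library was far below the lowest wild type library, and the groups did not overlap. The fall was 4.45-fold, from 1414 ± 281 to 318 ± 65.5 CPM (SD, n = 3 each; log2 -2.15 ± 0.20 SE, edgeR adjusted p = 2.87e-06), and 6.7% of all genes tested had a larger absolute log2 fold change. It took 0.144% of all gene counts in wild type and 0.0308% in the mutants. The authors' deposited table gives tfa a log2 fold change of -2.22 ± 0.18 (SE, adjusted p = 5.18e-32). In whole animals, fewer cells of a type and less RNA per cell cannot be told apart.

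Because hepatocytes make transferrin, tfa was set beside 24 hepatocyte marker genes. Of these markers, 14 fell and 8 rose, with a median log2 fold change of -0.84, and their summed level was 5857 to 7672 CPM in wild type and 7311 to 7572 CPM in the mutants. None was at 0 counts in all mutant libraries. Of the 24 markers, 91.7% were called, against 62.2% of all genes tested. The markers that fell furthest were the plasma glycoprotein gene ahsg1 (log2 -8.57 ± 0.33), the thyroid hormone carrier gene ttr (log2 -6.66 ± 0.24) and tdo2, for the tryptophan-degrading enzyme of liver (log2 -6.18 ± 0.18). The fibrinogen genes fga, fgb and fgg, named after their values were seen, rose (log2 2.00, 2.00 and 1.91). Per 1000 CPM of the summed markers, tfa was at 214, 252 and 188 CPM in wt11, wt12 and wt13 and at 32.6, 51.4 and 44.9 CPM in s1, s2 and s3, so the difference seen per library was also seen relative to this sum. Set against the median marker in place of the sum, the mean log2 difference of tfa was -1.53 in place of -2.36. The part of a change in hepatocyte number in the fall of tfa was not tested.

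**Figure D2:**
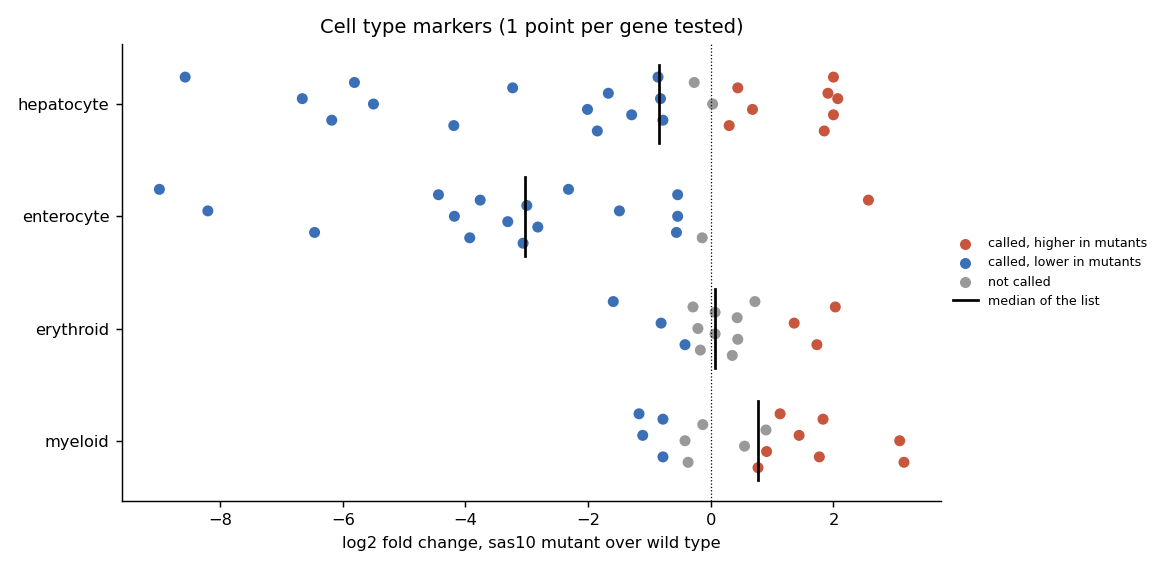
Log2 fold change, sas10 mutant over wild type (horizontal axis), of the markers of 4 cell types (rows), with 1 point per gene tested, coloured by the edgeR call, and a black bar at the median of each list. Hepatocyte markers spread from -8.57 to 2.07 and most enterocyte markers fell, while erythroid and myeloid markers lay on both sides of 0.

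The copper-containing ferroxidase gene cp (ENSDARG00000010312, chromosome 22, 38173960 to 38199988, plus strand), whose product oxidises iron so that transferrin can bind it, was not called. It ranged from 52.0 to 64.6 CPM in wild type and from 41.4 to 56.3 CPM in the mutants (log2 -0.28 ± 0.13 SE, adjusted p = 0.089). The groups overlapped through wt13 and s1. Without wt13, edgeR called it lower (log2 -0.35, adjusted p = 0.0399), as it did with upper-quartile scaling (log2 -0.41, adjusted p = 0.0197). Relative to the summed hepatocyte markers its mean log2 difference was -0.49, and against the median marker it was 0.34, so its direction relative to liver markers depends on which markers are used.

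The membrane transporters moved in opposite directions. The importer gene slc11a2 (ENSDARG00000024295, chromosome 11, 281833 to 287670, minus strand) rose from 26.9, 27.0 and 25.4 CPM in wt11, wt12 and wt13 to 50.8, 51.1 and 45.3 CPM in s1, s2 and s3. Replicates lay close together within each genotype and far apart between genotypes. The rise was 1.86-fold (log2 0.89 ± 0.11 SE, edgeR adjusted p = 2.28e-05; log2 0.82 ± 0.12 in the authors' deposited table). This gene is on the same chromosome as utp3, which starts at position 26370381; alleles linked to utp3 were not tested for their part in the difference.

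The exporter gene slc40a1 (ENSDARG00000000241, chromosome 9, 41103127 to 41113878, plus strand) was at 120, 78.0 and 88.1 CPM in wt11, wt12 and wt13, and at 76.3, 64.4 and 59.8 CPM in s1, s2 and s3. The groups were next to each other without overlap, with s1 just under wt12, and wt11 was the highest library. It fell by 0.51 ± 0.16 (SE) on the log2 scale, a 1.43-fold difference (edgeR adjusted p = 0.0154). The authors' deposited table, whose smallest absolute log2 fold change is 0.585, does not list slc40a1. Without wt11 the log2 fold change was -0.30 (adjusted p = 0.0296), and the call was lost without s2 (log2 -0.48, adjusted p = 0.0595) or s3 (log2 -0.43, adjusted p = 0.0685). The ratio of slc11a2 to slc40a1 in TPM (transcripts per 1000000, which divides by exon length) was 0.507, 0.787 and 0.655 in wt11, wt12 and wt13 and 1.51, 1.80 and 1.72 in s1, s2 and s3. An exact two-sided permutation test of its log2 values gave p = 0.1, the smallest p that 3 against 3 libraries allow. After Benjamini-Hochberg adjustment over the 3 ratios tested it was 0.15. Both genes already separated by genotype in opposite directions, so their ratio had to separate too, and the test adds nothing.

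Transferrin receptor transcripts were not called. The receptor that supplies iron to developing red cells in zebrafish is encoded by tfr1a (ENSDARG00000101322, chromosome 2, 4849269 to 4874966, minus strand), which ranged from 5.83 to 7.06 CPM in wild type and from 4.12 to 6.18 CPM in the mutants (log2 -0.37 ± 0.20 SE, edgeR adjusted p = 0.131). Mutant library s1 lay within the wild type range, and without it edgeR called tfr1a lower (log2 -0.56, adjusted p = 0.0408). Its copy tfr1b (ENSDARG00000077372, chromosome 24, 26017094 to 26031204, plus strand) ranged from 48.8 to 73.0 CPM in wild type and from 60.8 to 71.4 CPM in the mutants (log2 0.10 ± 0.14 SE, adjusted p = 0.574). The mutant libraries all lay inside the wild type range of tfr1b, and its small log2 difference turned to -0.04 with upper-quartile scaling and to -0.02 without wt13. Together the copies summed to 43.5 ± 7.40 TPM in wild type and 43.1 ± 3.49 TPM in the mutants (SD, n = 3 each), while tfa fell 4.45-fold. The ratio of tfr1b to tfr1a was 9.23 ± 2.56 and 13.1 ± 3.54 in TPM (exact two-sided permutation p = 0.3, adjusted p = 0.3).

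The hepatocyte receptor gene tfr2 (ENSDARG00000103727, chromosome 23, 44940700 to 44965582, minus strand), whose product senses plasma transferrin iron, was the scarcest of the 10. It had 28 to 55 counts per library, at 1.73 to 3.05 CPM in wild type and 1.45 to 2.17 CPM in the mutants, and the groups overlapped (log2 -0.34 ± 0.30 SE, adjusted p = 0.338). Without wt11, the highest library, the log2 fold change was -0.06 (adjusted p = 0.878).

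Erythroid markers were read beside the receptors. Of 15 tested, 3 rose, 3 fell and 9 were not called (median log2 fold change 0.07). The share called was 40%, against 62.2% of all genes tested. Their summed level was 522 to 593 CPM in wild type and 535 to 829 CPM in the mutants. The globin genes hbae3 (log2 2.03 ± 0.23) and hbae1.1 (log2 1.73 ± 0.28) rose, and rhag, for an ammonia transporter of red cells, fell (log2 -1.59 ± 0.11). The part of red cell number in the receptor values was not tested.

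**Figure D3:**
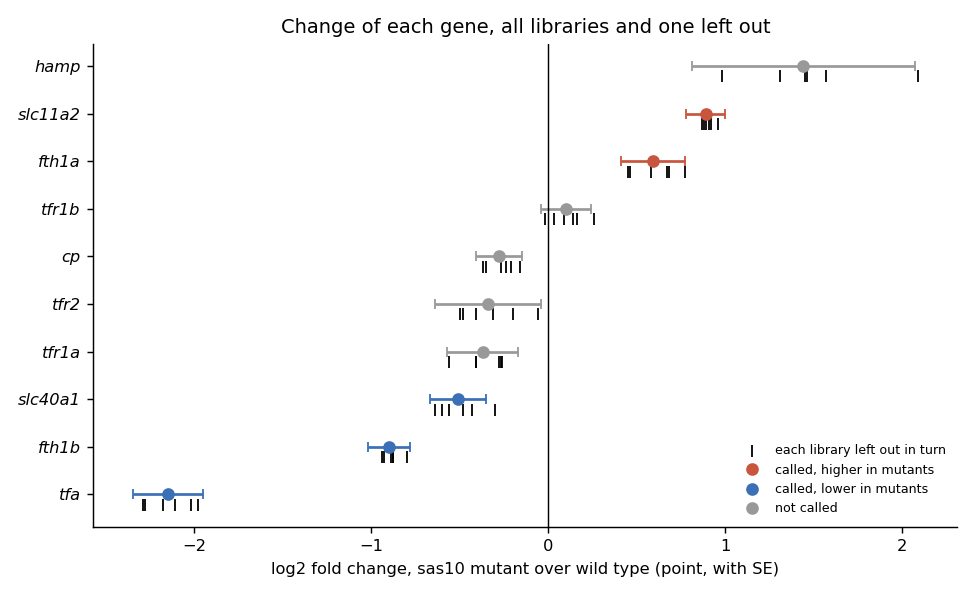
Log2 fold change, sas10 mutant over wild type (horizontal axis), of each of the 10 genes (rows) with its SE, coloured by the edgeR call, and ticks under each point for the value with each library left out in turn. The values run from -2.15 for tfa to 1.44 for hamp, whose ticks spread from 0.98 to 2.09, while those of slc11a2 stay between 0.87 and 0.96.

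The ferritin heavy chain genes changed in opposite directions. Ferritin heavy chains oxidise iron as it enters the storage cage. The major copy fth1a (ENSDARG00000015551, chromosome 7, 12927944 to 12936708, plus strand) was at 939, 750.1 and 607 CPM in wt11, wt12 and wt13, and at 1400, 1034 and 1022 CPM in s1, s2 and s3. All mutant libraries were above the wild type libraries, and in each genotype the library with heading ending in 1 was the highest. The rise was 1.51-fold (log2 0.59 ± 0.18 SE, edgeR adjusted p = 0.015). The call was lost without s1 (log2 0.45, adjusted p = 0.0727), without wt12 (log2 0.58, adjusted p = 0.0534) and with upper-quartile scaling (log2 0.46, adjusted p = 0.0524). With both s1 and wt11 left out, it passed (log2 0.62, edgeR adjusted p = 0.00218). That check was chosen after the values were seen, and fth1a was highest in the libraries it removes. Its p-value is therefore no support for a rise. The gene fth1a is not listed in the authors' deposited table, whose smallest absolute log2 fold change is 0.585.

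The minor copy fth1b (ENSDARG00000007975, chromosome 25, 3058924 to 3066067, plus strand) was at 30.3, 26.1 and 25.2 CPM in wt11, wt12 and wt13, and at 15.0, 14.3 and 14.5 CPM in s1, s2 and s3. The mutant libraries lay in a narrow band below all wild type libraries. It fell 1.86-fold (log2 -0.90 ± 0.12 SE, edgeR adjusted p = 5.83e-05; log2 -0.96 ± 0.14 in the authors' deposited table). The ratio of fth1a to fth1b in TPM was 45.5, 42.3 and 35.3 in wt11, wt12 and wt13 and 137, 106 and 103 in s1, s2 and s3. No mutant value came near the wild type range (exact two-sided permutation p = 0.1, the smallest possible, adjusted p = 0.15 over the 3 ratios). Since the copies already separated by genotype in opposite directions, their ratio had to separate too, and this test adds nothing. Summed over both copies, ferritin heavy chain transcripts went from 1428 ± 146 to 2033 ± 338 TPM (SD, n = 3 each), since fth1a made up nearly all of the sum.

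Further ferritin heavy chain-like genes lie together on chromosome 3, and 5 of them were among the other iron genes listed. Their reads may be shared between near-identical copies, so single values are uncertain. The most abundant, fthl27, was at 468, 226 and 234 CPM in wt11, wt12 and wt13 and at 568, 407 and 418 CPM in s1, s2 and s3 (log2 0.59 ± 0.27 SE, edgeR adjusted p = 0.0903). The copy fthl29 was at 70.0, 8.02 and 5.67 CPM in wt11, wt12 and wt13 and at 67.3, 6.40 and 6.32 CPM in s1, s2 and s3. Library wt11 and library s1 thus held about the same level of fthl29, far above the other libraries of both genotypes, and no difference by genotype was called (log2 -0.06 ± 1.56, adjusted p = 0.976). Its log2 fold change was -2.10 without s1 and 1.97 without wt11. The gene fthl28 showed the same high libraries, at 54.4, 8.34 and 6.28 CPM in wild type and 102, 19.2 and 25.3 CPM in the mutants. None of the 5 was called. The gene fthl27 was called higher without wt11 (log2 1.02, adjusted p = 4.66e-05) and with limma voom (adjusted p = 0.0421). The log2 fold change of fthl28 was -0.02 without s1 and 2.75 without wt11. With both wt11 and s1 left out fthl27 (log2 0.86, adjusted p = 5.52e-05), fthl28 (log2 1.63, adjusted p = 3.24e-05) and fthl31 (log2 1.27, adjusted p = 2.86e-05) were called higher in the mutants. That check was added after the values were seen, and these genes stood high in the libraries it removes. Its p-values are therefore no support for a rise. With all libraries fthl28 had a log2 fold change of 1.09 ± 1.22 (edgeR adjusted p = 0.486) and fthl31 of 0.97 ± 0.76 (adjusted p = 0.324). These ferritin-like genes were named after their values were seen.

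The hormone gene hamp (ENSDARG00000102175, chromosome 16, 50289916 to 50292583, plus strand) was at 24, 3.62 and 14.1 CPM in wt11, wt12 and wt13, and at 31.6, 43.9 and 36.9 CPM in s1, s2 and s3. The mutant libraries were all above the wild type libraries, but wild type values differed widely among themselves, with wt12 the lowest. The log2 fold change of 1.44 ± 0.63 (SE) did not pass (edgeR adjusted p = 0.102; DESeq2 adjusted p = 0.0704). It passed without wt12 (log2 0.98, adjusted p = 0.00491) and with limma voom (log2 1.81, adjusted p = 0.00636). Without wt11 the log2 fold change was 2.09 (adjusted p = 0.0537). Per 1000 CPM of summed hepatocyte markers hamp was at 3.12, 0.607 and 2.40 CPM in wild type and 4.17, 6.0 and 5.0 CPM in s1, s2 and s3, where the groups again did not overlap. Hepcidin and transferrin, both products of hepatocytes, had mean log2 differences of opposite sign against the same liver marker sum, of 1.59 and -2.36. That sum averaged 6495 CPM in wild type and 7422 CPM in the mutants. Dividing by it therefore had to keep the opposite signs of the genes' own changes, and it adds nothing to them. For hamp the log2 difference against the sum was 0.87 without wt12, and it was 2.42 against the median marker in place of the sum.

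Levels were then ordered per exon length. In wild type fth1a was highest at 1394 ± 147 TPM and tfa next at 564 ± 59.5 TPM (SD, n = 3 each), each apart from its neighbours. Below them slc40a1 (50.5 TPM), hamp (40.6 TPM), tfr1b (39.1 TPM), fth1b (34.1 TPM), cp (33.3 TPM) and slc11a2 (32.1 TPM) followed with overlapping neighbours. The receptor genes tfr1a (4.37 TPM) and tfr2 (1.92 TPM) were lowest, each apart from its neighbours. In the mutants fth1a was again highest at 2016 ± 338 TPM, while tfa (122 ± 26.6 TPM) and hamp (107 ± 18.6 TPM) overlapped. Then came slc11a2 (56.6 TPM), tfr1b (39.9 TPM), slc40a1 (33.9 TPM), cp (26.2 TPM) and fth1b (17.4 TPM), where only tfr1b and slc40a1 overlapped as neighbours. The ratio of fth1a to tfa, storage to plasma carrier, was 2.48 ± 0.17 in wild type and 17.57 ± 7.32 in the mutants. Among all genes of the table, tfa ranked 243 by TPM in wild type and 1013 in the mutants, and fth1a ranked 106 and 48.

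Which other genes had a like pattern over the 6 libraries was read from the root-mean-square difference of centred log2 CPM. For tfa the closest were spp1, for osteopontin (0.109), the cytochrome c oxidase subunit gene cox6a1 (0.132) and the lens crystallin gene crygm2d14 (0.147). For hamp they were si:ch1073-143l10.2 (0.365), si:ch211-39f2.3 (0.424) and ENSDARG00000102758 (0.435), so the closest gene to hamp lay further from it than these from tfa. This measure also counts spread within a genotype, and hamp ran from 3.62 to 24 CPM in wild type.

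The wider pathway was read from 5 lists with 70 tested genes, of which 30 rose, 10 fell and 30 were not called (median log2 fold change 0.34). The share called was 57.1%, against 62.2% of all genes tested, of which 30.5% were higher and 31.8% lower, so it was no larger than that of the transcriptome. Of 13 genes of iron entry and reduction, 6 rose and 5 fell (84.6% called, median log2 0.33). The metalloreductase gene steap4 was at 28.3, 22.2 and 22.9 CPM in wild type and at 109, 297 and 205 CPM in s1, s2 and s3, a wide spread that lay wholly above wild type (log2 3.06 ± 0.34, adjusted p = 0.000125). The ferroxidase gene heph, for a membrane relative of ceruloplasmin, was higher in the mutants, at 5.31 ± 0.755 CPM against 1.56 ± 0.962 CPM in wild type (log2 1.77 ± 0.34, adjusted p = 0.000963; log2 2.39 without wt11). The metal importer gene slc39a8 fell from 1.84 ± 0.63 to 0.43 ± 0.04 CPM (log2 -2.09 ± 0.38, adjusted p = 0.000597). Unlike cp, heph was thus called, although a difference between their changes was not tested. Enterocyte markers moved in the same libraries: of 18, 16 fell and 1 rose (94.4% called). Their sum was 4736 to 5662 CPM in wild type and 975 to 1178 CPM in the mutants, with none at 0 in all mutant libraries. Those that fell furthest were the chitinase gene chia.2 (log2 -8.99 ± 0.23) and copies of the peptide transporter gene slc15a1 (ENSDARG00000044528, log2 -8.20 ± 0.36; ENSDARG00000100315, log2 -6.46 ± 0.20). In mammals enterocytes take up dietary iron through DMT1, the product of slc11a2, which here rose; the part of enterocyte number in its value was not tested.

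Genes of iron sensing and ferritin turnover were mostly not called: of 11, 1 rose and 1 fell (18.2% called, median log2 -0.01). Over all genes tested 62.2% were called. Without wt11, 2 rose and 2 fell. The list includes the ferritin-like genes fthl27, fthl28, fthl29, fthl30 and fthl31 described above, none of which was called with all libraries. With both wt11 and s1 left out, fthl27, fthl28 and fthl31 were called higher, but that check was added after their values were seen. The ferritin autophagy receptor gene ncoa4 was at 61.0, 63.0 and 57.1 CPM in wild type and higher in s1, s2 and s3, at 109.7, 103.8 and 103.9 CPM (log2 0.81 ± 0.10, adjusted p = 2.76e-05). The iron-sensing ubiquitin ligase subunit gene fbxl5, which in mammals targets iron regulatory protein IRP2 for degradation, fell from 42.1, 39.8 and 38.5 to 27.9, 27.2 and 27.0 CPM (log2 -0.55 ± 0.10, adjusted p = 0.000683). Both changes were tight, with libraries of each genotype close together. The genes of the iron regulatory proteins themselves, aco1 (log2 -0.31, adjusted p = 0.0574) and ireb2 (log2 0.13, adjusted p = 0.378), named after their values were seen, were not called. For aco1 edgeR called a fall with upper-quartile scaling (log2 -0.44, adjusted p = 0.0127), the stricter filter (adjusted p = 0.0455) and without wt12 (adjusted p = 0.0379). It was not called with RLE scaling, DESeq2 or limma voom, nor without any other single library.

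Among 20 genes listed for hepcidin control, some of them targets of BMP or STAT3 signalling, 10 rose and 1 fell (median log2 0.46). The share called was 55%, against 62.2% of all genes tested. Their summed level was 379 to 386 CPM in wild type and 1293 to 1407 CPM in the mutants. Much of that rise came from the socs3 copies and il6st, whose values follow, and 9 of the 20 genes were not called. The symbols tmprss6 and erfe, also listed for hepcidin control, had no match and are absent from these values. The copies of socs3, a feedback inhibitor induced by STAT3, both rose. The level of ENSDARG00000025428 was 9.31 ± 1.88 CPM in wild type and 387 ± 32.0 CPM in the mutants (log2 5.38 ± 0.17, adjusted p = 9.12e-10). The level of ENSDARG00000026611 was 17.0 ± 2.70 CPM and 254 ± 14.1 CPM (SD, n = 3 each; log2 3.90 ± 0.14, adjusted p = 2.03e-09). The shared receptor subunit gene il6st was at 46.1, 42.3 and 49.1 CPM in wild type and 197, 205 and 210.4 CPM in s1, s2 and s3 (log2 2.15 ± 0.11, adjusted p = 2.41e-08). Of genes named after their values were seen, stat3 (log2 1.49 ± 0.12), bmp6 (log2 1.07 ± 0.17) and smad1 (log2 1.42 ± 0.10) rose, the bmp6 product being the main BMP signal for hepcidin in mammals. The BMP target genes id1 (log2 0.01, adjusted p = 0.964) and smad7 (log2 0.19, adjusted p = 0.307) were not called. Of the copies of smad6 in this list, also named after their values were seen, ENSDARG00000031763 rose (log2 0.56 ± 0.13, adjusted p = 0.00287). The other, ENSDARG00000053209, was not called (log2 0.13, adjusted p = 0.42). Also named after their values were seen, smad5 (log2 0.60 ± 0.11) and bmp2 copy ENSDARG00000041430 (log2 1.28 ± 0.17) rose. The other bmp2 copy was not called (log2 0.35, adjusted p = 0.106), nor were hjv (log2 0.29, adjusted p = 0.325) and the copies of neo1 and smad4. The gene that fell was il6r, for the interleukin 6 receptor, also named after its values were seen (log2 -0.48, adjusted p = 0.0317). It overlapped between the genotypes and was not called without s2, s3, wt11 or wt13 (adjusted p = 0.087, 0.112, 0.0568 and 0.135). The gene il6 itself, also named after its values were seen, was called higher (log2 3.78 ± 0.74, adjusted p = 0.000948). It was scarce, with 1, 1 and 2 counts in wt11, wt12 and wt13 and 12, 36 and 11 in s1, s2 and s3.

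Heme handling and iron-sulfur cluster genes completed the set. Of 10 genes for heme capture, export and breakdown, 4 rose and 2 fell (median log2 0.43). The share called was 60%, against 62.2% of all genes tested. The inducible heme oxygenase gene hmox1 was at 16.3 ± 2.08 CPM in wild type and higher in the mutants, at 59.8 ± 9.54 CPM (log2 1.88 ± 0.15, adjusted p = 7.2e-07). The heme exporter gene flvcr1 was at 10.5 ± 1.35 CPM and 23.0 ± 2.21 CPM (log2 1.13 ± 0.14). A copy of the constitutive oxygenase gene, hmox2 (ENSDARG00000114695), fell from 46.9 ± 3.37 to 24.4 ± 2.11 CPM (log2 -0.94 ± 0.11). Another copy, hmox2b (ENSDARG00000078452), named after its values were seen, was not called (log2 -0.05 ± 0.17, edgeR adjusted p = 0.82). The genotypes overlapped for hmox2b, whose wild type mean was 5.60 CPM and mutant mean 5.41 CPM. Of 16 genes for iron-sulfur cluster assembly, 9 rose and 1 fell (median log2 0.44), a share of 62.5% called, near that of all genes. Among those that rose were hscb (log2 1.47 ± 0.23), for a co-chaperone, and bola3 (log2 1.43 ± 0.21) and ciao1 (log2 1.04 ± 0.12), for assembly factors. In this list 5 rose with upper-quartile scaling, 6 without s1 and 11 without wt11. Myeloid markers came from a list not limited to macrophages, which recycle heme iron, and with copies of mfap4 counted as separate genes. These markers moved both ways: of 17, 8 rose and 4 fell (median log2 0.77), a share of 70.6% called. Their sum was 141 to 199 CPM in wild type and 342 to 504 CPM in the mutants, with 1 copy of mfap4 at 0 in all mutant libraries. Those with the largest changes were srgn (log2 3.15 ± 0.20), a copy of mfap4 (ENSDARG00000090557, log2 3.08 ± 0.27) and nccrp1 (log2 1.83 ± 0.14). Their part in the heme gene values was not tested.

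**Figure D4:**
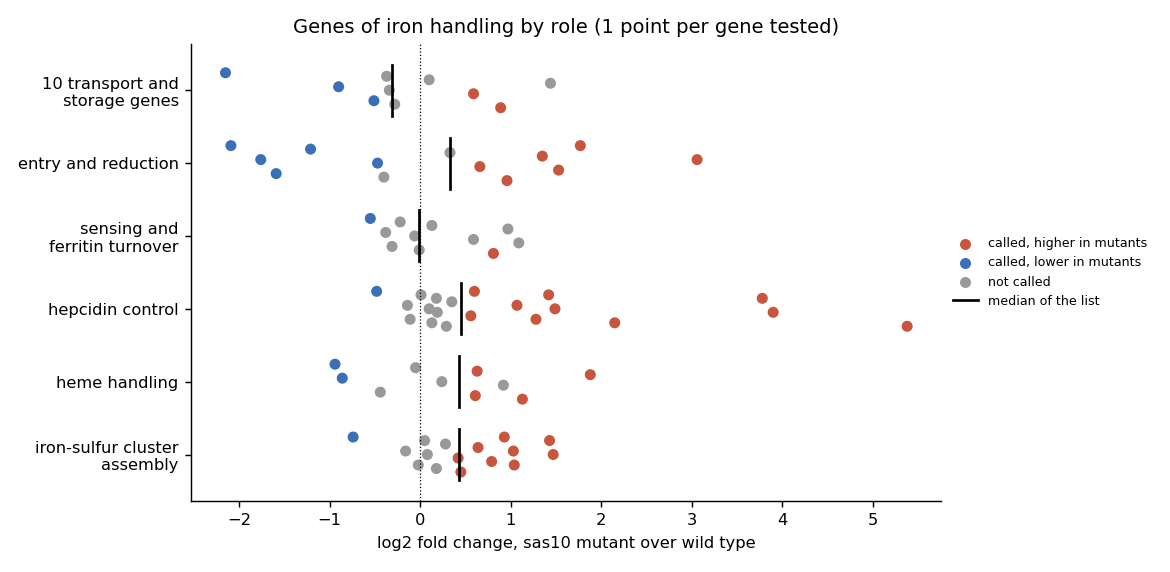
Log2 fold change, sas10 mutant over wild type (horizontal axis), of the 10 transport and storage genes and of 5 lists of other iron genes (rows), with 1 point per gene tested, coloured by the edgeR call, and a black bar at the median of each list. The 10 genes have a median of -0.31, the lists have medians from -0.01 to 0.46, and the hepcidin control list holds the highest points.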

How the data were processed

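RNA of whole wild type and sas10 mutant zebrafish was sequenced (6 libraries). Gene counts were made by the authors with featureCounts 2.0.1 on the Ensembl GRCz11 annotation of release 105, for read pairs and with no strand option, per the file headers; fastp 0.20.0, HISAT2 2.2.1 and DESeq2 1.40.2 are named in the submitters' processing notes. The authors' deposited table of log2 fold changes and adjusted p-values lists 8574 genes, with a largest adjusted p-value of 0.0494 and a smallest absolute log2 fold change of 0.585, and agrees in sign with the fit here for all 8553 genes that both hold. Its standard errors, treated as a score, are the authors' deposited values.

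Column headings show the genotype but not the labels' replicate numbers, so libraries are named by heading. Within each genotype, pairs of libraries gave chi-square values of 7.29 to 30.5 for each degree of freedom, above sampling noise. Counts were fitted with edgeR 4.0.16 (R 4.3.3; TMM scaling, default filter, robust quasi-likelihood test) and adjusted over 21708 genes. The script was tested on simulated counts in which few genes changed, with a common dispersion. In these data 62.2% of genes were called, so that test does not check scaling or error rates here. A p-value here measures only how these libraries vary, which the series calls biological repeats. TPM was computed from counts and exon lengths of the table, so it depends on annotated length. No strand was used in counting, so antisense reads are not told apart; the genes overlapping members had at most 0.02 CPM. Intervals are SE or SD. Symbols matched 29201 of 32520 identifiers; 14 of 158 listed symbols had no match.

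The members and lists were chosen with earlier results of these data known. Named genes are the 10 members, utp3, the 3 called genes of each list with the largest absolute change and at least 1 CPM, and the 3 genes most like the members with the largest fall and rise (at least 5 CPM); others are stated to have been named after their values were seen. Alternatives were RLE and upper-quartile scaling, 2 other filters, DESeq2 1.42.0, limma 3.58.1 voom, and each library left out.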

Additional observations from a re-analysis of the deposited data

How the results depend on the processing

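The direction of tfa, slc11a2, fth1b, slc40a1, fth1a, hamp, cp, tfr1a and tfr2 was the same under every alternative run, and tfa, slc11a2 and fth1b were called in all of them; tfr1b turned to -0.04 with upper-quartile scaling and to -0.02 without wt13. Upper-quartile scaling, which moved the median log2 fold change of all genes from -0.04 to -0.17, left 1 of the 10 genes called higher, 3 genes of iron sensing and ferritin turnover lower and 5 of iron-sulfur cluster assembly higher. In the list of iron sensing and ferritin turnover, 2 were higher with limma voom and 2 lower with the stricter filter. With each library left out in turn, 1 to 2 of the 10 genes were higher and 2 to 4 lower; the ranges were 1 to 2 higher and 1 to 2 lower for sensing and ferritin turnover, and 0 to 1 lower for hepcidin control; tfr1b ranged from -0.02 to 0.26. Relative to the median hepatocyte marker in place of the sum, the log2 difference was -1.53 for tfa, 0.34 for cp, 0.31 for tfr2 and 2.42 for hamp; the values against the sum were -2.36, -0.49, -0.52 and 1.59. The cause was not tested.

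The labels number replicates 1 to 3 in both genotypes. Libraries whose headings end in the same digit had correlated deviations of 0.12, 0.05 and 0.24, against -0.2 to 0.07 for the other pairs. Only s2 correlated slightly better with another digit, at 0.07 with wt11. The labels do not say that libraries are paired, so the main fit has no pairing, but a pairing remains possible. With that digit as a replicate block, chosen after seeing the data, 6886 genes were higher and 7138 lower in place of 6614 and 6894. Of the 10 iron genes 4 were lower (cp joined, edgeR adjusted p = 0.0251), and 4 genes of sensing and ferritin turnover were higher and 2 lower. In the block fit fth1a had a log2 fold change of 0.60 ± 0.12 SE (edgeR adjusted p = 0.000733), against 0.59 ± 0.18 without the block. That of hamp was 1.63 ± 0.84 SE (adjusted p = 0.217), against 1.44 ± 0.63. With both wt11 and s1 left out, also added later, 5 of the 10 were lower, 4 genes of sensing and ferritin turnover were higher and 2 lower, and 0 of hepcidin control were lower (edgeR; il6r had an adjusted p = 0.058). Of the 10 genes tfr2 had the fewest counts, with 28 to 55 per library.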

Other observations

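The libraries wt11 and s1, 1 of each genotype, shared high levels of a small set of genes, which included fthl28, fthl29, fthl30 and fthl31. Of the 14774 genes that averaged 5 CPM or more, 27 were at least 1.3 times higher in both of these libraries than in any of the other 4, and fthl29 was the highest of them, at 8.39 times. Next came ENSDARG00000115988 (3.48 times), ENSDARG00000115978 (3.02 times) and ENSDARG00000116076 (2.5 times), which have no symbol. The glutathione transferase gene gstp1.2 was at 476, 189 and 185 CPM in wt11, wt12 and wt13 and at 542, 223 and 222 CPM in s1, s2 and s3. The metallothionein gene mt1x, for a metal-binding protein, was at 95.1, 41.6 and 44.1 CPM in wild type and at 93.6, 50.3 and 66.3 CPM in s1, s2 and s3. The calcium channel gene trpv6 was at 275, 62.9 and 47.3 CPM and at 177, 104 and 98.8 CPM. These genes were picked for this pattern after their values were seen, and no test of it was made.

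The copies of mcoln1, which encodes a lysosomal channel that releases iron, went opposite ways like the ferritin copies. One (ENSDARG00000058848) fell from 3.90 ± 1.07 to 1.29 ± 0.49 CPM (log2 -1.59 ± 0.32, edgeR adjusted p = 0.00123), and the other (ENSDARG00000002285) rose from 24 ± 2.67 to 46.9 ± 3.08 CPM (log2 0.96 ± 0.12, edgeR adjusted p = 3.01e-05). The mitochondrial iron importer genes also differed in sign: slc25a37 rose from 0.75 ± 0.22 to 2.17 ± 0.71 CPM (log2 1.53 ± 0.36) and slc25a28 fell from 90.8 ± 6.20 to 65.7 ± 4.25 CPM (log2 -0.47 ± 0.10). These were named after their values were seen.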
